A study of Drosophila melanogaster with 1908 samples.

Results

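The genes described here are 10 genes of the germ plasm and the germline, osk, nos, vas, pgc, gcl, aub, tud, tej, bru1 and ovo, out of 23932 genes in a single-nucleus expression matrix of Drosophila melanogaster embryos. They were chosen by name, for their known roles, and all 10 were present in the matrix. For each gene the level in all nuclei of an age was measured, and so was how evenly that RNA was spread over single nuclei. The nuclei came from pooled whole embryos of the wild-type strain Canton S, untreated and with no mutant group, collected in 11 overlapping windows from 0-2 h to 16-20 h after egg laying. Combinatorial indexing (sci-RNA-seq3) was run in 7 experiments, and each experiment held several windows. The matrix held 347601285 unique molecular identifiers (UMIs, meant as 1 for each captured RNA molecule) in 547805 nuclei, with a mean of 634.5 UMIs per nucleus and at most 7497. The plots call the nuclei cells.

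In the fly, germ plasm is cytoplasm loaded by the mother at the posterior pole of the egg, and it holds the RNAs and proteins that make the first cells to form there, the pole cells, into the germline. The same RNAs are also present outside the germ plasm in the early embryo, where they are degraded when the zygotic genome takes over. The pole cells then pass through the midgut wall, migrate and join the somatic gonad. The assay captured RNA of nuclei, whereas germ plasm is cytoplasm, and how much cytoplasmic RNA stayed with each nucleus was not measured.

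Counts were summed over the nuclei of each experiment and collection window, which gave 38 sums of 462334 to 36032867 UMIs, and levels were expressed as counts per 1e6 UMIs of a sum (CPM). Experiments were the replicates. It was not established here that each experiment used its own embryo collections, so p-values measure the spread between experiments. In such sums, fewer nuclei of a type and less RNA per nucleus cannot be told apart. CPM is not adjusted for gene length, so levels were compared within a gene and not between genes.

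The genes lie on 4 chromosome arms (dm6 coordinates, gene spans). On 2L are vas (15061656 to 15074311, plus strand), aub (10997819 to 11001476, minus strand) and bru1 (12175004 to 12313438, plus strand). On 2R are pgc (22330200 to 22332813, plus strand), gcl (8724258 to 8728999, plus strand), tud (21183322 to 21192913, plus strand) and tej (14300103 to 14302353, minus strand). On 3R are osk (8935126 to 8938395, plus strand) and nos (19157238 to 19160202, plus strand), and on X is ovo (5048273 to 5070929, plus strand). All 10 are protein-coding, and 8 of them overlap another annotated gene. The sources do not say if the counting used strand, so reads of overlapping genes may be shared. The span of vas overlaps solo on the same strand and vig on the other. Over single experiments and windows, solo held 8.04 to 36.4 CPM and vig 56.2 to 849.8 CPM. The mean of vig was 339.6 CPM at 4-8 h, against 77.8 CPM at 0-2 h, a difference in the direction opposite to that of vas.

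Of the 10 genes, 9 had their highest mean level at 0-2 h or 1-3 h, and ovo had its highest at 8-12 h. Among the genes that build the germ plasm, osk, the organizer of its assembly, averaged 24.2 ± 12.6 CPM at 0-2 h (SD, n = 4). The helicase gene vas averaged 382.5 ± 44.9 CPM, and tud, whose protein carries many Tudor domains and acts as a scaffold, averaged 353.3 ± 107.1 CPM. Of the germ plasm RNAs that act in pole cells, nos, a translational repressor, averaged 217.97 ± 59.7 CPM, pgc, a peptide that holds back transcription elongation, averaged 31.3 ± 11.2 CPM, and gcl, needed for pole cells to form, averaged 397.8 ± 68.4 CPM. The piRNA pathway genes aub (a Piwi-family Argonaute) and tej (a Tudor-domain partner of vas) averaged 211.4 ± 18.8 and 151.6 ± 16.7 CPM. For bru1, an RNA-binding protein that represses osk translation, the mean was 2640.4 ± 504.1 CPM, and for ovo, a zinc-finger transcription factor, it was 666.996 ± 87.7 CPM. The row of ovo also takes in the shavenbaby transcripts, which act in the epidermis.

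The genes differed in when they declined. At 1-3 h, vas, pgc and osk stood at 52.3%, 55.4% and 58.9% of their 0-2 h means, whereas gcl, aub and tej stood at 100.4%, 108.7% and 112.5% of theirs. In half-hour bins of inferred age (the developmental age predicted for each nucleus by the authors' neural network), vas averaged 408.8 ± 43.6 CPM at 0 to 0.5 h (n = 3), 295.2 ± 44.7 at 1 to 1.5 h and 145.7 ± 92.6 at 2 to 2.5 h (n = 4 each). Over the same 3 bins, aub averaged 217.5 ± 26.02, 223.3 ± 19.97 and 207.8 ± 66.1 CPM. The mean of vas was thus lower at 2 to 2.5 h than at 0 to 0.5 h, while the means of aub differed by less than their SDs. The difference between the 2 declines was not tested. The network predicted age from the expression counts themselves, so levels in bins of inferred age are not independent of that age, here and below. The paper reports larger errors of the predicted age for germ cells, for the first collection window and for low read counts.

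**Figure D1:**
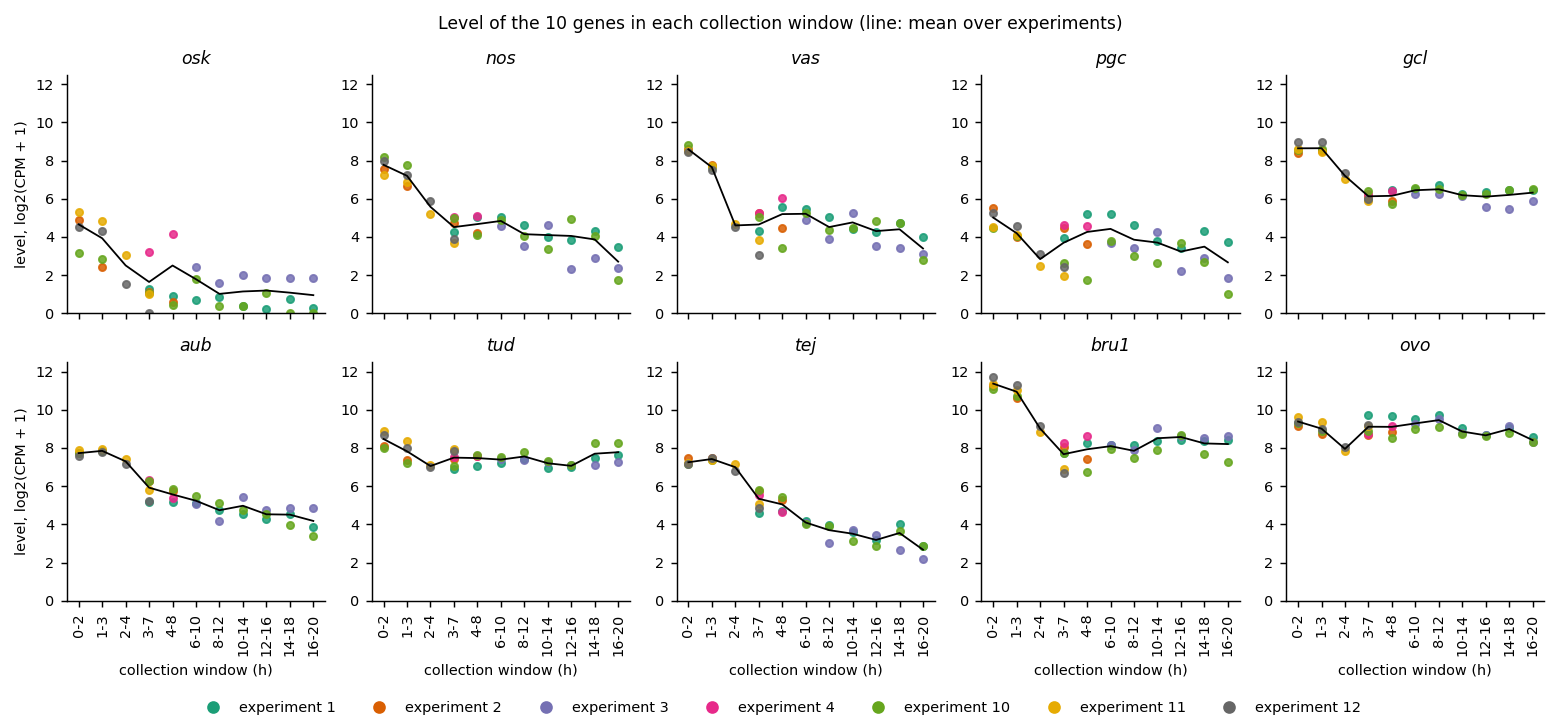
Level of each of the 10 genes, log2 of CPM + 1 (y axis), against the collection window (x axis, hours after egg laying), 1 point per experiment and a line through the window means. At 2-4 h vas is at 24.6 and 22.01 CPM, against 344.8 to 445.2 CPM at 0-2 h, whereas aub and tej are still near their 0-2 h levels.

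At 2-4 h, compared with 0-2 h, 7 of the 10 genes were lower and none was higher (edgeR quasi-likelihood test, Benjamini-Hochberg adjusted p at most 0.05 over 12116 genes). Of all genes tested, 13.6% were lower, 21.5% higher and 35.2% either. The gene vas was at 24.6 and 22.01 CPM in experiments 11 and 12 at 2-4 h, against 383.5, 445.2, 356.3 and 344.8 CPM in experiments 2, 10, 11 and 12 at 0-2 h. Both later values lay far below all 4 earlier ones, with a log2 fold change of -3.88 (SE 0.60, adjusted p = 2.95e-06 by edgeR). For nos the values were 35.8 and 57.6 CPM at 2-4 h, against 185.9, 285.7, 153.1 and 247.1 CPM at 0-2 h, also without overlap. Its log2 fold change was -2.14 (SE 0.56, adjusted p = 0.00248 by edgeR). For bru1 they were 462.2 and 571.6 CPM, against 2392, 2210.4, 2602 and 3357 CPM, with a log2 fold change of -2.28 (SE 0.47).

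The other 4 that fell at 2-4 h were pgc, gcl, tud and ovo, with log2 fold changes of -2.23, -1.37, -1.38 and -1.38. The values of pgc were 4.57 and 7.77 CPM at 2-4 h, against 44.2, 21.5, 22.4 and 37.1 CPM at 0-2 h. The 3 genes that did not pass were aub at 169.5 and 143.7 CPM, against 209.8, 209.04, 236.2 and 190.4 CPM, tej at 142.5 and 110.7 CPM, against 176.1, 140.4, 148.6 and 141.5 CPM, and osk. For osk the values were 7.47 and 1.94 CPM at 2-4 h, against 28.8, 7.93, 37.98 and 22.2 CPM at 0-2 h. In bins of inferred age the means of pgc, vas, nos and bru1 at 2-4 and 0-2 h stood closer than in the collection windows. At 2-4 h (n = 6) pgc averaged 25.1 ± 13.7 CPM, against 26.1 ± 7.90 CPM at 0-2 h (n = 4), and so was not lower beyond its SD. The means by age were 164.4 ± 86.8 CPM at 2-4 h, against 332.4 ± 35.96 CPM at 0-2 h, for vas, 132.9 ± 68.5 CPM, against 193.2 ± 51.5 CPM, for nos and 1249.8 ± 488.4 CPM, against 2461 ± 435.8 CPM, for bru1. These means weigh all experiments alike, and at 2-4 h of age experiments 1 and 4 held 5 and 1 UMIs of pgc. In experiment 11 alone, pgc was at 4.54 CPM at 2-4 h, against 21.7 CPM at 0-2 h, and vas at 26.3, against 336.7 CPM. In experiment 12 pgc was at 23.8, against 31.05 CPM, and vas at 125.5, against 284.4 CPM. In experiments 2 and 10 pgc was higher at 2-4 h, at 42.1 and 31.6 CPM, against 34.4 and 17.4 CPM. With the experiment as a block, osk passed as well (log2 fold change -2.62, adjusted p = 0.00094 by edgeR). Counting genes whose 2 groups did not overlap, 9 of 10 were apart, all lower, beside 44.8% of all genes apart in either direction. The 2-4 h window rests on 2 experiments. The calls of pgc (without experiment 1, 2 or 3), tud (without 1, 3 or 10) and ovo (without 10) were lost in single leave-outs. Without experiment 11, 2 of the 10 genes passed, and without experiment 12, 1 passed, with the lone remaining sum assumed to vary like the others.

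At 4-8 h, compared with 0-2 h, 9 of the 10 genes were lower and none was higher, with 26.7% of all genes lower, 40.8% higher and 67.5% either. For 7 of the 10 the groups did not overlap, beside 51.7% of all genes. The median log2 fold change of the 10 was -2.73, beside 0.51 over all genes, and all 10 lay below that median. The values of vas were 47.2, 21.3, 64.4 and 9.92 CPM at 4-8 h in experiments 1, 2, 4 and 10, against 344.8 to 445.2 CPM at 0-2 h (log2 fold change -3.94, SE 0.45, adjusted p = 2.67e-09 by edgeR). The RNA of aub, which had not passed at 2-4 h, was now at 35.3, 52.9, 41.3 and 56.6 CPM, against 190.4 to 236.2 CPM, and that of tej was at 24.6, 37.96, 24.3 and 41.5 CPM, against 140.4 to 176.1 CPM. Both pairs of groups were apart, with log2 fold changes of -2.53 (SE 0.37) for aub and -2.53 (SE 0.34) for tej. The log2 fold changes of nos, gcl and bru1 were -3.58, -2.94 and -3.92.

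The calls for osk, tud and ovo at 4-8 h depended on single experiments or on the scaling. For osk, experiment 4 held 17.001 CPM from 14 UMIs, whereas experiments 1, 2 and 10 held 0.85, 0.52 and 0.38 CPM, against 7.93 to 37.98 CPM at 0-2 h (log2 fold change -3.68, SE 1.17). The call for osk was lost without experiment 1, 2 or 11. For tud the fall was 1.44 on the log2 scale (SE 0.39), and without experiment 11 the call was lost at -0.72. For ovo it was 0.75 (SE 0.29, adjusted p = 0.0230 by edgeR), and the call was lost in each of the 6 fits without 1 of experiments 1, 2, 3, 10, 11 or 12, with a log2 fold change of -0.14 without experiment 11. With DESeq2 scaling, which moved the median of all genes to 1.45, ovo stood at 0.26 and 6 genes passed as lower, without osk, tud and ovo.

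The levels of pgc were spread widely after 2-4 h. It averaged 6.17 ± 2.26 CPM at 2-4 h (n = 2), 18.2 ± 14.6 at 4-8 h (n = 4), 20.5 ± 13.8 at 6-10 h and 5.38 ± 6.26 at 16-20 h (n = 3 each). At 4-8 h the 4 experiments held 36.1, 11.2, 23.1 and 2.42 CPM, a spread that overlapped both the 2-4 h and the 0-2 h values. It was the only gene of the 10 that did not pass at 4-8 h (log2 fold change -1.23, SE 0.63, adjusted p = 0.0832 by edgeR). With the experiment as a block it passed, at -2.22 with an adjusted p of 0.00022 (edgeR). In bins of inferred age, pgc averaged 11.3 ± 12.7 CPM at 4-6 h and 33.02 ± 22.9 at 6-8 h, vas 27.97 ± 33.6 and 60.1 ± 29.6, and nos 27.8 ± 31.3 and 47.2 ± 22.95 (n = 7 each). For each of the 3 genes the level was higher at 6-8 h than at 4-6 h in 6 of 7 experiments. It was lower in experiment 3, which held 6 UMIs of pgc, 16 of vas and 15 of nos at 4-6 h. At 6-8 h, experiments 11 and 12 held 3 and 12 UMIs of pgc, 10 and 15 of vas and 9 and 16 of nos. The rise was not particular to these genes. It was seen in 6 of 7 experiments for osk, gcl and bru1, in 5 of 7 for aub and in 4 of 7 for tud, tej and ovo. For osk the levels rest on only 1 to 17 UMIs per experiment at 4-6 h and 0 to 16 at 6-8 h. These differences were not tested.

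At 16-20 h, compared with 4-8 h, 4 of the 10 genes were lower and none was higher, with 19.9% of all genes lower, 23.9% higher and 43.8% either. For 3 of the 10 the groups did not overlap, beside 44.5% of all genes. For tej, levels were 6.39, 3.60 and 6.22 CPM at 16-20 h in experiments 1, 3 and 10, against 24.3 to 41.5 CPM at 4-8 h (log2 fold change -2.39, SE 0.39, adjusted p = 6.55e-06 by edgeR). Values of nos were 10.2, 4.11 and 2.33 CPM, against 31.7, 17.8, 32.8 and 15.9 CPM, without overlap (log2 fold change -1.94, SE 0.49). Those of vas were 15.02, 7.71 and 5.91 CPM, against 9.92 to 64.4 CPM (-1.60, SE 0.47), and aub gave -1.37 (SE 0.40). Without experiment 10, only tej of these 4 passed, and without experiment 1 the call for aub was lost at -1.11.

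The means of gcl, tud and bru1 were higher at 16-20 h, each by less than its SD at 16-20 h. At 16-20 h (n = 3) gcl averaged 78.9 ± 18.1 CPM, against 70.2 ± 17.6 CPM at 4-8 h (n = 4). For tud the means were 218.7 ± 76.2 CPM at 16-20 h, against 176.5 ± 31.2 CPM, and for bru1 294.1 ± 124.3 CPM, against 243.2 ± 128.5 CPM. None of the 3 passed the test at 16-20 h against 4-8 h, at log2 fold changes of 0.40, 0.50 and 0.51. With the experiment as a block tud was higher (0.65, adjusted p = 0.0102 by edgeR), ovo lower (-0.74, adjusted p = 0.0006) and pgc lower (-1.24, adjusted p = 0.0438). With DESeq2, gcl, tud and bru1 all passed as higher. The level of ovo was highest at 8-12 h, with 703 ± 147.4 CPM (n = 3), and stood at 339.03 ± 38.3 CPM at 16-20 h.

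How the remaining RNA was shared out among nuclei was measured with a pair ratio. Each nucleus was thinned to 250 UMIs, pairs of UMIs of 1 gene in the same nucleus were counted, and the count was divided by that of an even spread over all nuclei (0.5 pairs added to both). A ratio of 1 means an even spread, and higher values mean that UMIs of the gene shared a nucleus more often than that. Whether UMIs that shared a nucleus came from separate RNA molecules was not tested.

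By 6-12 h of inferred age, the mean log2 pair ratio was above that at 0-2 h for the 7 genes with at least 3 experiments of 50 UMIs, but so was that of most genes. The difference was above 0 for 94.9% of 4352 genes, and 0% of them passed an adjusted p of 0.05 in the exact two-sided permutation test, while 29.4% had an unadjusted p under 0.05 and a higher ratio. The values of the germline genes were therefore set beside those of all genes, whose median pair ratio was 11.01 at 6-12 h, against 3.27 at 0-2 h. For aub the ratio was 60.7, 31.4, 55.4 and 50.1 in experiments 1, 2, 3 and 10 at 6-12 h, against 2.06 to 9.49 at 0-2 h. The groups did not overlap, and the log2 difference of 3.47 was reached or exceeded by 1.17% of all genes (exact permutation p = 0.0286, the smallest possible, adjusted p = 0.105). For nos the ratio was 26.8, 18.3 and 23.03 in experiments 1, 3 and 10, against 1.40 to 3.42, a log2 difference of 3.29 that 2.27% of genes reached (exact permutation p = 0.0571, the smallest possible, adjusted p = 0.122). By the median ratio at 6-12 h itself, the genes stood out less. Of all genes, 11.6% were at or above aub and 36.7% at or above nos.

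The differences of the other 5 genes were nearer to that of all genes, whose median was 1.55, or below it. For vas the ratio was 7.54, 4.45, 7.83 and 11.96 at 6-12 h, against 0.943 to 1.88 at 0-2 h, a log2 difference of 2.502 reached by 14.9% of genes (exact permutation p = 0.0286, adjusted p = 0.105). For bru1 the medians were 5.65 at 6-12 h and 1.07 at 0-2 h, and 24.98% of genes had as large a difference. By the median ratio at 6-12 h itself, all 5 lay below the 11.01 of all genes. Of all genes, 57.9% were at or above vas, 67.2% at or above bru1 and 86.6% to 92.1% at or above gcl, ovo and tud. The medians of ovo were 3.17 at 6-12 h and 1.05 at 0-2 h and those of tud 2.63 at 6-12 h and 1.07 at 0-2 h, with 61.5% and 66.4% of genes at or above their differences. For gcl they were 3.25 at 6-12 h and 1.24 at 0-2 h, with 77.6% at or above, but the ratio was 0.507 in experiment 3 at 6-12 h, below its 4 values at 0-2 h, 1.11 to 1.46 (exact permutation p = 0.286). Of the genes with too few experiments to test, pgc had ratios of 16.7 and 10.1 and tej of 76.9 and 63.8 in experiments 1 and 10 at 6-12 h. The RNA of osk was too scarce at 6-12 h for a ratio.

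At 0-2 h itself, the medians over experiments were 1.05 for ovo, 1.07 for bru1, 1.07 for tud, 1.24 for gcl and 1.31 for vas, all close to an even spread. The median was 1.91 for pgc, 2.35 for osk (n = 3 experiments each) and 2.42 for nos (n = 4). Higher values were found for aub and tej, at medians of 5.19 and 5.86, and these varied between experiments. Of all genes, whose median was 3.27, 35.1% were at or above aub and 31.3% at or above tej. For tud, bru1 and ovo the share at or above was 95.8% to 96.3%. For aub the ratio was 8.21 and 9.49 in experiments 2 and 10 and 2.18 and 2.06 in experiments 11 and 12, and for tej it was 8.54 and 13.5, and 3.18 and 2.64.

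**Figure D2:**
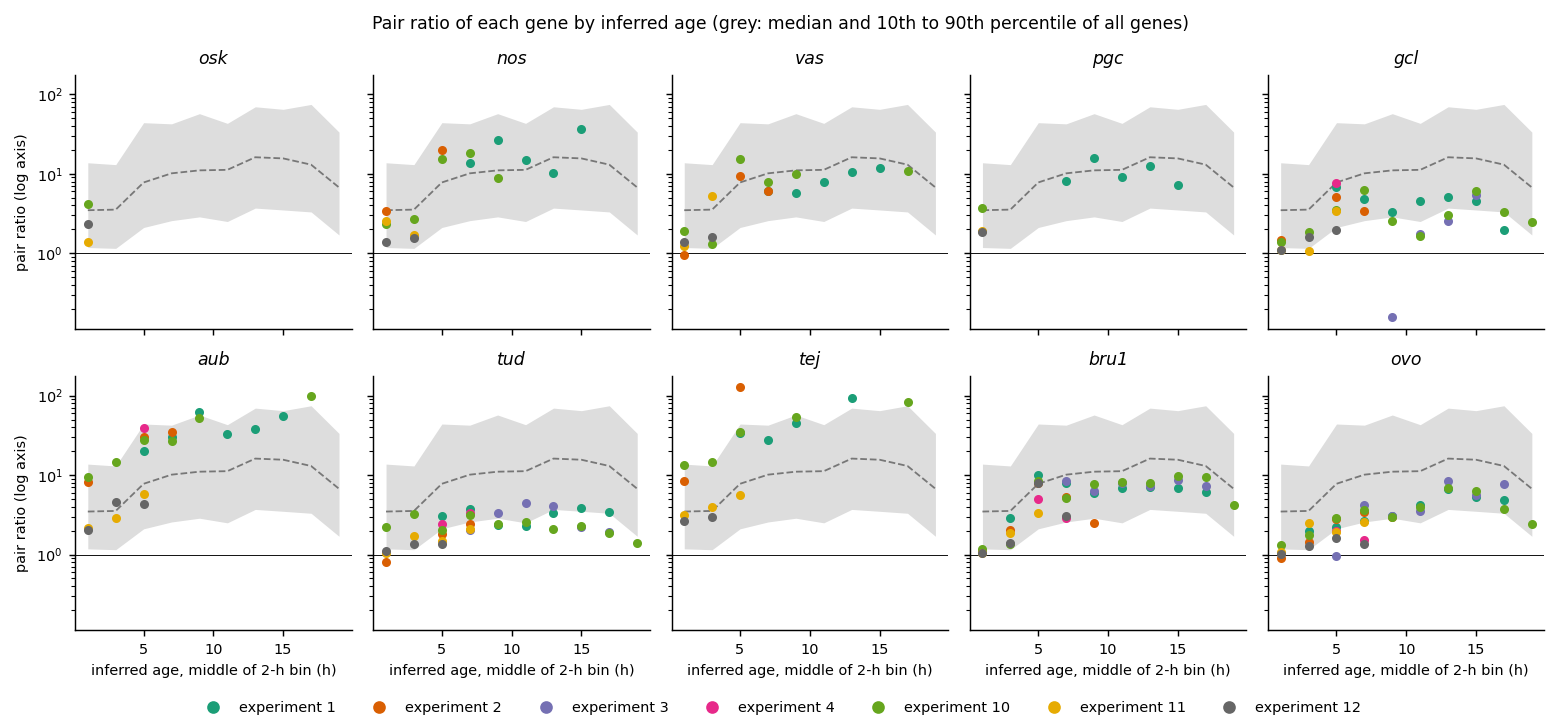
Pair ratio (y axis, log scale, 1 = even spread over nuclei) against inferred age in hours (x axis) for the 10 genes, 1 point per experiment and 2-h bin with at least 50 UMIs, with a dashed line and grey band for the median and the 10th to 90th percentile of all genes. The points of aub and tej lie mostly in the upper part of the band after 4 h, and those of tud and ovo stay below the median of all genes.

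The pair ratio does not say whether the genes share their nuclei, so nuclei that held 2 genes together were counted and divided by the number expected if the genes were spread independently within each experiment and 2-h bin of age (nuclei thinned to 250 UMIs). This ratio is a description, with no test. At 6-12 h it was 6.88 for nos and vas (44 nuclei, 6.40 expected), 7.23 for vas and pgc (39 and 5.39), 5.90 for nos and pgc (24 and 4.06) and 5.40 for vas and bru1 (360 and 66.7). By experiment, nos and vas gave 8.26, 3.04 and 8.67 in experiments 1, 2 and 10. At 0-2 h it was close to 1, with 1.11 for nos and vas (530 nuclei, 475.6 expected) and 1.09 for vas and pgc. Over all experiments the nuclei with both genes of these 4 pairs thus outnumbered the expected ones at 6-12 h. Not every experiment showed it: experiment 2 gave 0 nuclei with nos and pgc, against an expected 0.81, and experiment 12 gave 0.77 for vas and bru1, from 1 nucleus.

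Ratios of vas with the piRNA genes were smaller. At 6-12 h the ratio was 3.45 for vas and aub, 2.47 for vas and tej and 2.62 for aub and tej (12 nuclei, 4.59 expected), although pairs of UMIs of aub itself gave 57.6 and those of tej 116.8. With aub and tej, nos gave 4.41 and 4.38 and pgc gave 4.34 and 3.17, beside 4.18 for pgc and bru1. The smaller ratios of the piRNA genes were thus seen with vas and not in every pair. For vas with gcl it was 2.55, with tud 1.21 and with ovo 0.78. The genes zpg, a germline gap junction gene, and alphaTub67C, a maternal tubulin, gave 6.32 and 7.52 with vas. The RNA of bcd, the anterior determinant loaded by the mother and localized away from the germ plasm, gave 4.82 with vas, 9.51 with pgc and 6.51 with aub. Markers of somatic cells gave 0.11 (Mhc, muscle myosin), 0.12 (apolpp, fat body) and 0.45 (elav, neurons). At 12-18 h the ratio was 16.5 for nos and vas, but from 12 nuclei and an expected 0.73. With aub at these ages, nos gave 10.1, vas 7.82 and pgc 1.61, from 7, 10 and 1 nuclei.

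**Figure D3:**
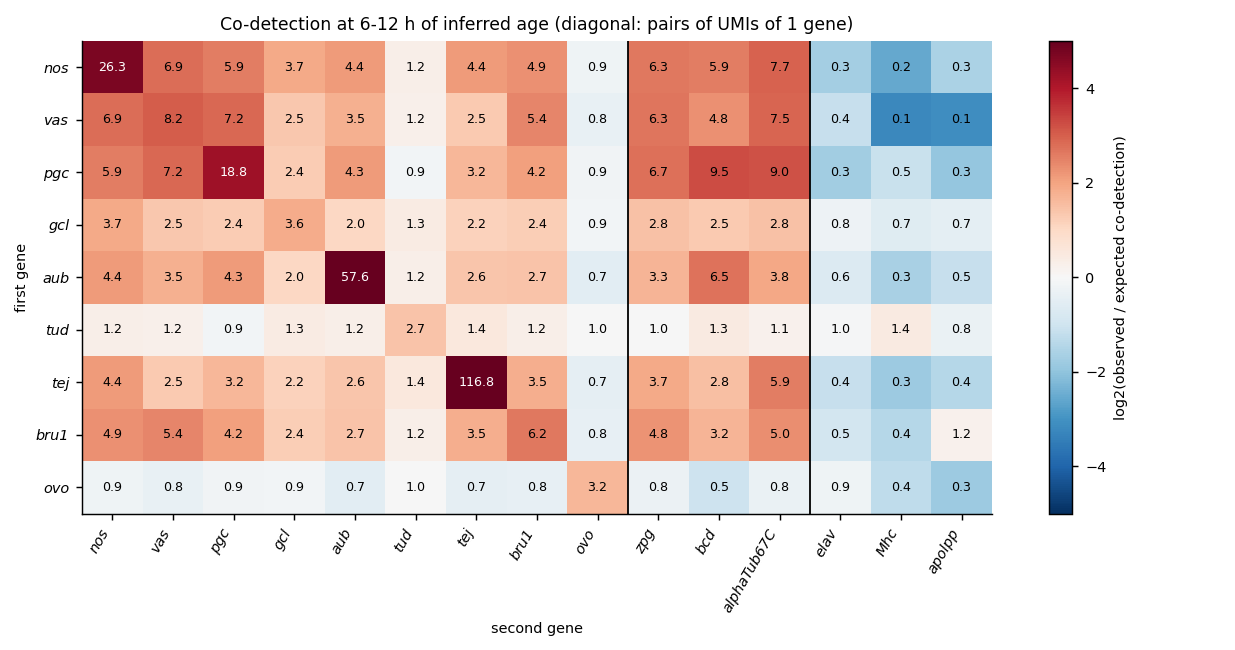
Ratio of observed to expected nuclei holding both genes (printed value, and colour as its log2) at 6-12 h of inferred age, for 9 germline genes (rows) with each other, with zpg, bcd and alphaTub67C, and with the somatic markers elav, Mhc and apolpp (columns). The diagonal gives the ratio for pairs of UMIs of 1 gene. The block of nos, vas, pgc and bru1 is above 4 throughout, as are nos with aub and tej and pgc with aub. The row of ovo is below 1 outside its diagonal.

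Nuclei holding many UMIs of a gene were described as well (a minimum of 4 UMIs, set after the values were seen, unthinned, 6-18 h of inferred age). Of the 42 nuclei rich in vas, 69.05% also held nos, 59.5% pgc and 97.6% bru1. Of the nuclei rich in aub (0.0359% of 295594), 27.4% held vas, 17.9% nos, 12.3% tej and 31.1% bcd, and of the 47 rich in tej, 21.3% held vas and 23.4% aub. These nuclei were deep, with medians of 4429.5 UMIs for vas, 1964.5 for aub and 1257 for tej, and a deeper nucleus holds more genes. Among the 13748 nuclei with 1000 to 3000 UMIs (median 1364), 5.69% held vas, 4.09% nos, 3.97% aub and 2.57% tej. In the same nuclei 25.8% held bru1, 3.56% pgc and 2.93% bcd. The vas-rich nuclei were deeper by their median than this range and than the aub-rich and tej-rich nuclei. These shares were thus not compared at like depth.

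The nuclei carrying vas after 6 h were then compared with all other nuclei over all genes. A nucleus was called vas-marked when it held at least 2 UMIs of vas, at 6-18 h of inferred age, in the experiments with at least 20 such nuclei (1, 2, 3 and 10). Of 292198 nuclei, 0.172% were vas-marked, from 0.0867% to 1.11% per experiment. Since vas set the mark, its level of 1009.8 ± 91.5 CPM in marked and 24.3 ± 19.2 CPM in other nuclei (SD, n = 4 experiments) is only a description. Marked nuclei were also deeper, as a minimum of 2 UMIs favours, with medians of 1529 to 1999.5 UMIs per nucleus, 4.25 to 5.55 times the medians of the other nuclei. The median mitochondrial share was 1.23% to 1.89% in marked and 0.193% to 1.02% in other nuclei, and the ribosomal share was 4.31% to 9.18% in marked and 0.692% to 7.54% in other nuclei. Median inferred ages were 8.65 h in marked and 11.98 h in other nuclei of experiment 1, and 9.30 and 12.4 h in experiment 3. They were 8.97 and 15.8 h in experiment 10, but 7.58 and 6.63 h in experiment 2, whose latest window sum was 4-8 h. The inferred age of 63.02% of the marked nuclei lay inside their own collection window.

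Of the 9 other genes, 7 were higher in vas-marked nuclei (edgeR with experiment as a block, 7916 genes), with 24.9% of all genes higher, 37.8% lower and 62.8% either. For 6 of the 9 the groups did not overlap, beside 49.4% of all genes. All 7 were higher in 4 of 4 experiments. The germ plasm RNAs osk, pgc and nos had the largest changes of the 9. For nos, levels were 256.9, 267.2, 147.02 and 314.9 CPM in marked nuclei of experiments 1, 2, 3 and 10, against 19.5, 51.2, 10.6 and 10.9 CPM in the others (log2 fold change 2.98, SE 0.31, adjusted p = 7.1e-21 by edgeR). For pgc they were 268.2, 234.6, 202.2 and 110.6 CPM, against 19.97, 42.9, 7.71 and 4.36 CPM (3.07, SE 0.32, adjusted p = 8.86e-21). The groups did not overlap for either gene. The log2 fold change of osk was 3.62 (SE 0.74), but it rests on 14 UMIs in marked nuclei, 8, 2, 1 and 3 by experiment. In the others osk was at 0.48, 0.70, 2.53 and 0.18 CPM. Genes low in both groups were left out of the test, and osk entered it only through the marked nuclei. Its difference is therefore only a description, although the counts of 7 and 6 genes include it.

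For bru1 the marked nuclei held 1999, 2189.7, 1948 and 1924 CPM, against 297.9, 567.97, 326.99 and 192.9 CPM in the others, a log2 fold change of 1.88 (SE 0.26, adjusted p = 2.33e-12 by edgeR). The piRNA genes were higher by less, tej by 1.75 (SE 0.35) and aub by 1.46 (SE 0.31) on the log2 scale, and gcl was higher by 1.23 (SE 0.28). The values of aub were 161.6, 175.96, 110.3 and 119.2 CPM in marked nuclei, against 23.7, 74.9, 25.4 and 21.9 CPM, whereas those of tej, at 119.04, 123.8, 110.3 and 38.3 CPM, overlapped the 12.7, 50.9, 7.66 and 11.5 CPM of the others. For tud the values were 218.04, 280.2, 349.2 and 187.3 CPM, against 154.6, 198.96, 153.9 and 247.2 CPM, and the test was not passed (log2 fold change -0.35, adjusted p = 0.268). For ovo they were 497.5, 508.3, 551.3 and 587.3 CPM, against 626.98, 456.8, 550.6 and 402.9 CPM. The fitted difference of ovo was -0.67 (adjusted p = 0.0168), and the call was lost without experiment 1 and without experiment 3. Scaling by library sizes alone moved the median of all genes to 0.63, against -0.07 with TMM scaling, put tud at 0.39 and ovo at 0.07 and kept the 7 as higher.

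**Figure D4:**
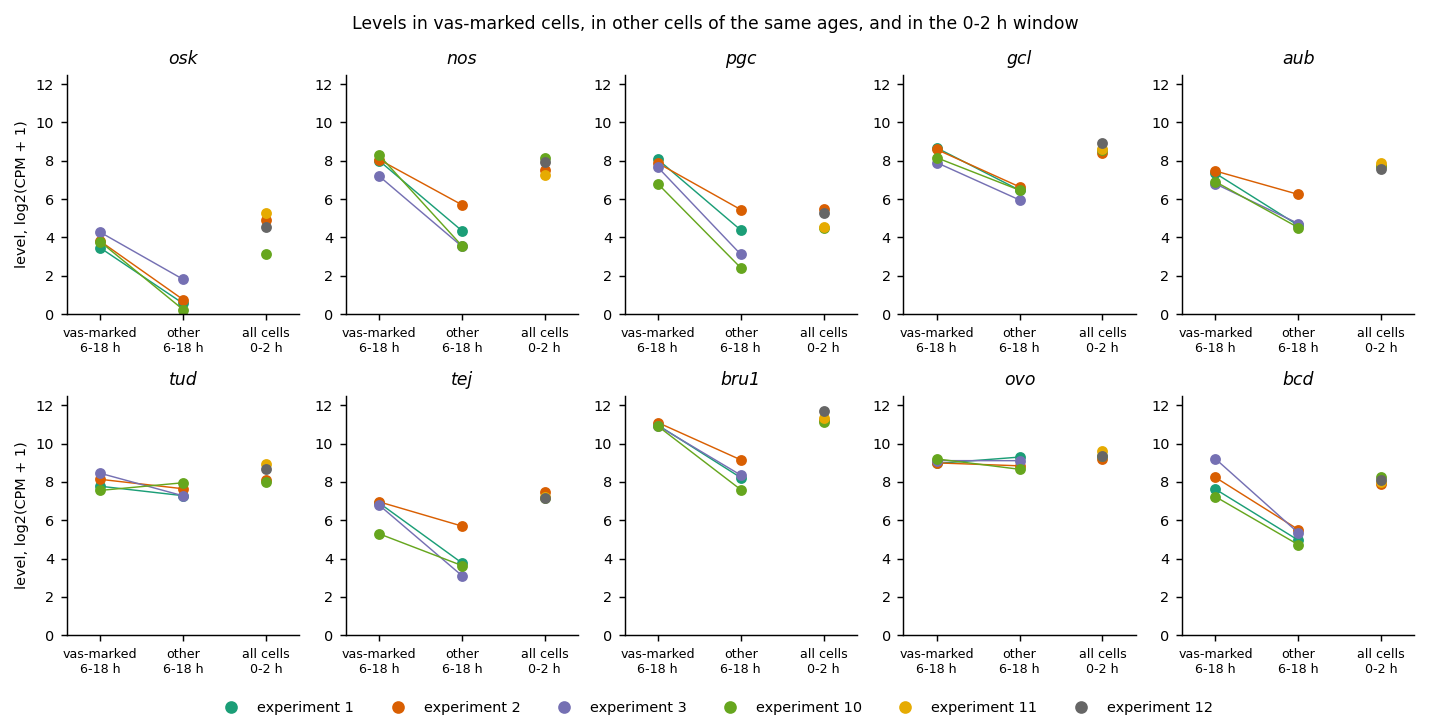
Log2 of CPM + 1 (y axis) of 9 germline genes and bcd in vas-marked nuclei (left) and other nuclei (middle, lines join experiments) at 6-18 h of inferred age, and in all nuclei of the 0-2 h window (right), 1 point per experiment (n = 4 each). The groups of nos, pgc and bru1 lie apart, with nos at 147.02 to 314.9 CPM in marked nuclei against 10.6 to 51.2 CPM in others, while those of tud and ovo overlap.

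The result was measured again with the difference in depth reduced. With a minimum of 1000 UMIs for both kinds of nuclei, an alternative chosen after seeing the data, experiments 1, 2 and 10 remained, and 6 of the 8 genes tested were higher, with 18.1% of all genes higher and 29.1% lower. Marked nuclei were still 1.58 to 2.02 times as deep as the others by their medians. Their median inferred ages still differed, at 8.46 h in marked and 9.86 h in other nuclei of experiment 1. They were 8.95 and 14.2 h in experiment 10, but 7.58 and 6.65 h in experiment 2. The log2 fold changes were 2.55 for nos, 2.38 for pgc, 1.85 for bru1, 1.29 for gcl, 1.04 for tej and 0.995 for aub, and those of tud and ovo were -0.55 and -0.17, neither past the threshold. With every nucleus thinned to 250 UMIs instead, nos was found in 5.77% of marked nuclei (exact 95% interval 3.89% to 8.18%, counting error only), against 0.0509% (0.0338% to 0.0736%) of 54981 nuclei marked by muscle genes. The median depth before thinning was 1875 UMIs in marked nuclei, 4.70 times that in muscle-marked nuclei. In marked and in muscle-marked nuclei the shares were 4.97% and 0.0709% for pgc, 35.8% and 3.57% for bru1, 3.18% and 0.155% for aub, and 5.37% and 5.48% for tud. By experiment, the share with tud ran from 3.51% to 6.67% in marked and from 3.65% to 6.63% in muscle-marked nuclei. Over all 291695 other nuclei the shares were 0.287% for nos, 0.26% for pgc, 5.24% for bru1, 0.379% for aub and 4.03% for tud, so the muscle-marked nuclei gave the larger contrast for nos, pgc, bru1 and aub. In neuron-marked nuclei bru1 was found in 7.98%.

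Other maternal RNAs moved with the germline genes in vas-marked nuclei. The anterior RNA of bcd was at 195.5, 299.8, 588.1 and 148.95 CPM in marked nuclei, against 30.1, 44.6, 39.4 and 25.4 CPM in others (log2 fold change 2.18, SE 0.28, adjusted p = 6.57e-14 by edgeR), and at 1.13 with the minimum of 1000 UMIs. Genes with large positive changes after osk included CG7208, Cyp6a19, CG9926 and CG5194, at 3.31 to 3.11, and alphaTub67C (3.09), CG7091 (3.08), exu (3.08), which acts in bcd RNA localization, and png (3.07), a kinase subunit of egg activation. Of the 1974 genes higher in marked nuclei and also tested between windows, 74.2% were lower at 4-8 h than at 0-2 h, beside 39.3% of all 7916 genes. Those shared genes were 47.1% of the genes lower at 4-8 h. The part of remaining maternal RNA, of depth, of inferred age and of the mitochondrial and ribosomal shares in the result was not tested.

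Set beside the means over all nuclei of the 0-2 h windows, the germline genes in marked nuclei did not all stand at the same level. This sets nuclei chosen by vas against an average over whole embryos, not against the germline nuclei of 0-2 h. The mean of pgc was 203.9 ± 67.8 CPM in marked nuclei (n = 4), against 31.3 ± 11.2 CPM at 0-2 h (n = 4), a ratio of 6.52, and the ranges were apart. That of nos was 246.5 ± 70.98 CPM in marked nuclei, against 217.97 ± 59.7 CPM, and that of bcd 308.1 ± 197.03 CPM, against 264.9 ± 27.6 CPM, both within their spread. For tej (97.9 ± 40.1 CPM in marked nuclei against 151.6 ± 16.7 CPM), aub (141.8 ± 31.98 against 211.4 ± 18.8) and bru1 (2015 ± 120.6 against 2640.4 ± 504.1) the marked nuclei were lower, with ranges apart. These differences were not tested. Of all UMIs of pgc at 6-18 h in these experiments, 7.59% to 22.6% lay in marked nuclei, and of nos 4.17% to 21.8%.

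Markers of other cell types were mostly low in vas-marked nuclei. The summed level of 5 somatic muscle markers was 0 to 629.8 CPM in marked nuclei, against 2909 to 6919 CPM in others, that of 5 neuronal markers was 32.6 to 367.5 CPM, against 530.7 to 2242 CPM, and that of 3 glial markers 0 to 38.3 CPM, against 201.8 to 279.5 CPM. The 3 markers of the gonadal soma summed to 0 to 2.51 CPM, against 24.4 to 36.2 CPM, with tj and Sox100B at 0. The 3 fat body markers summed to 39.1 to 2719.8 CPM, against 2074 to 23608 CPM. The 3 plasmatocyte markers overlapped between the groups, at 218.04 to 312.4 CPM, against 204.7 to 336.6 CPM, although Hml was at 0. The germ cell marker zpg was at 238.9 to 497.9 CPM, against 20.2 to 100.7 CPM.

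Related genes were described by 4 lists, from which the 10 genes were left out. Of all genes, 24.9% were higher in vas-marked nuclei and 37.8% lower. Of 21 piRNA pathway genes tested, 15 were higher in vas-marked nuclei and 0 lower, with a median log2 fold change of 1.35, beside -0.07 over all genes. They included del (3.07), a factor of piRNA cluster transcription, piwi (2.69), the nuclear Argonaute, krimp (2.60) and shu (2.58). Of 17 genes of germ plasm assembly and maternal RNA localization, 8 were higher and 5 lower (median 0.51), with exu at 3.08, swa at 2.37, me31B at 2.28 and orb at 2.26 among the higher. Of 14 partners of nos and later germline genes, 8 were higher and 5 lower (median 1.95), with dhd at 3.01 and otu at 2.87, but bol at -3.74 and Sxl at -2.95. The shares lower in these last 2 lists were not above that of all genes. Of 9 genes of germ cell migration, 0 were higher and 6 lower (median -1.49). Those that fell included srp (-3.64) and zfh1 (-2.74), which act in the somatic tissues that guide the germ cells.

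**Figure D5:**
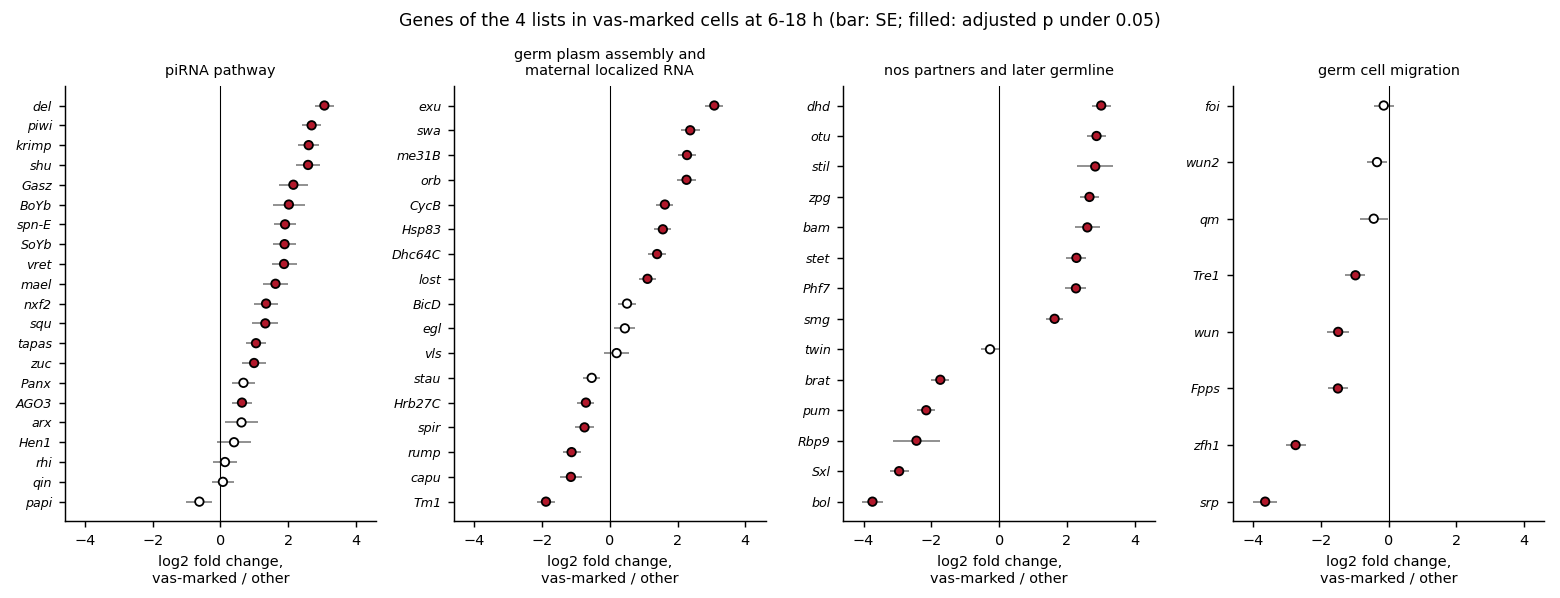
Log2 fold change of vas-marked against other nuclei (6-18 h of inferred age) for genes of the 4 lists, 1 point per gene with its SE as a bar, filled where the adjusted p (edgeR) is under 0.05. The piRNA pathway genes have a median of 1.35 with 0 genes lower, and the migration genes a median of -1.49 with 0 genes higher, over all tested genes of each list, of which 1 migration gene is not drawn.

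Over the windows, more piRNA genes passed as lower at 4-8 h than at 2-4 h, as did more of all genes. Of all genes 13.6% were lower at 2-4 h and 26.7% at 4-8 h than at 0-2 h, and 19.9% at 16-20 h than at 4-8 h. Of the 23 tested genes of the list, 7 were lower at 2-4 h than at 0-2 h (median log2 fold change -0.33), 18 were lower at 4-8 h (median -1.97) and 14 were lower at 16-20 h than at 4-8 h (median -1.37), with 1 higher in each. The largest falls at 4-8 h were those of del (-4.49), tapas (-4.09), krimp (-3.81) and shu (-3.69). Of the 17 germ plasm assembly genes, 9 were lower at 2-4 h and 12 at 4-8 h, with 0 higher, among them orb (-4.32), swa (-3.79), exu (-3.44) and egl (-3.24) at 4-8 h. The migration list had a median of 0.16 at 4-8 h, beside 0.51 over all genes, with srp at 4.71 and zfh1 at 1.23. Of 15 nos partners and later germline genes, 9 were lower and 3 higher at 4-8 h (median -1.80), beside 40.8% of all genes higher, with otu at -4.58 and bol at 3.77.

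The genes most like each of the 10 over the 38 sums were named by the Pearson correlation of log2 CPM, with no p, since all sums share depth and windows. For nos the nearest were BigH1 (0.98), Pxt (0.97) and zpg (0.96), for vas fs(1)N, fs(1)Ya and yl (0.98 each), and for bru1 orb, rost and Lsd-2 (0.96 each). For pgc they were dhd (0.95), gnu (0.93) and CG14545 (0.91), and for osk G9a (0.90), 4E-T (0.90) and Nxf3 (0.88). For aub they were CG4281 (0.98), CG4497 (0.98) and Mcm10 (0.97), for tej Snp, CG9705 and Su(var)3-7 (0.97 to 0.96), and for gcl mal, HPS4 and Trxr-1 (0.96 each). The closest correlations of tud, with Ask1 (0.82), and of ovo, with RhoGEF2 (0.79), were lower than those of the other 8.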

How the data were processed

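Nuclei of wild-type embryos were profiled by sci-RNA-seq3 in 7 experiments, labelled as 1908 PCR-well samples. The deposited values are UMI counts per gene and nucleus. The authors mapped reads to dm6 (STAR 2.7.3a per the submitters' processing notes), filtered nuclei, removed doublets with a caller, assigned collection windows by barcode and predicted an age per nucleus, in hours, deposited beside the counts as a score of time. In the counts used here 8.06% of nuclei exceed 10% ribosomal UMIs. The depths per sum are given above. Intervals cover counting error only.

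Here counts were summed per experiment and window (at least 100 nuclei) and tested with edgeR 4.0.16 in R 4.3.3 (quasi-likelihood, TMM scaling, Benjamini-Hochberg FDR 0.05, prior count 1), checked on simulated counts. The vas mark used the experiment as a block. Windows of 1 experiment share a batch per the labels, and the pairing showed in the data: deviations of 107 same-experiment pairs of sums had a median correlation of 0.32, with 89.7% above 0.1, against -0.06 and 16.4% in 544 other pairs. Alternatives were library sizes alone, DESeq2 1.42.0, 400 UMIs or more, age inside the window, the block, a mark of 3 UMIs, thinning to 100 UMIs, leaving out each experiment and, chosen after seeing the data, 1000 UMIs or more. Gene names and positions come from the BDGP6.54 annotation (release 115), in which nos is listed as nanos. The text names all 10 genes, the leading genes of the vas mark, up to 4 genes per list by size of change, and the 3 genes most alike. Some genes that these rules select are not reported here. The genes and lists were chosen with earlier results of these data known. No sequences are printed.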

Additional observations from a re-analysis of the deposited data

Results flagged for a closer look

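In 72 groups of 4 to 10 values of the 10 genes, 8 had a sample farther from the others than a 95% Dixon criterion allows, and chance gives about 1 in 20. Of these, 2 were osk in experiment 4, at 8.12 CPM in the 3-7 h window (the next highest was 1.45) and at 17.001 CPM in the 4-8 h window (the next highest was 0.85). At 1-3 h, pgc was highest in experiment 12, at 22.7 CPM (next 16.1), and aub in experiment 11, at 244.99 CPM (next 225.9). At 4-8 h, tud was lowest in experiment 1, at 130.001 CPM (next 188.5). In the vas-marked nuclei, tej was lowest in experiment 10, at 38.3 CPM (next 110.3). In the other nuclei at 6-18 h, experiment 2 was highest for both piRNA genes, with aub at 74.9 CPM (next 25.4) and tej at 50.9 CPM (next 12.7). The latest window sum of experiment 2 was 4-8 h. The median inferred age of these nuclei was 6.63 h, against 11.98, 12.4 and 15.8 h in experiments 1, 3 and 10. The part of age in this difference was not tested.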

How the results depend on the processing

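With the experiment as a replicate block, osk was also lower at 2-4 h (-2.62), which made 8 genes, pgc also lower at 4-8 h (-2.22), which made 10, and tud higher and ovo and pgc lower at 16-20 h, which made 6 lower, and the block changed no other call of the 10 genes between windows. Without the block, the call for ovo in vas-marked nuclei was lost (-0.75, adjusted p = 0.0753 by edgeR). DESeq2, which moved the median of all genes to 0.71, 1.45 and 0.39 at 2-4, 4-8 and 16-20 h, against 0.05, 0.51 and -0.13 with TMM, gave 4 genes lower at 2-4 h, and turned the sign of aub (0.25) and tej (0.45) at 2-4 h and of ovo at 4-8 h (0.26) and at 16-20 h (0.063). The sign of tej at 2-4 h also turned with 400 UMIs or more (0.18) and with age inside the window (0.0088), and those of tud (0.39) and ovo (0.073) in vas-marked nuclei with library sizes alone. Leaving out 1 experiment at a time gave 2295 to 4505 genes called at 2-4 h (4261 with all), 1 to 7 of the 10 lower at 2-4 h and 1 to 5 lower at 16-20 h, with log2 fold changes at 2-4 h of -0.22 to 0.48 for tej and -0.44 to 0.17 for aub. With 1000 UMIs or more on both sides, 3312 genes were called in vas-marked nuclei (4969 with all). The share of called genes that were higher was 73.2%, 78.4% and 68.8% by DESeq2 at 2-4, 4-8 and 16-20 h, against 61.2%, 60.4% and 54.5% with TMM, and 60.04% with library sizes alone and 27.2% with DESeq2 in vas-marked nuclei, against 39.7%. The pair ratio gave 0 calls in all settings run. The causes were not tested. Depth limits osk most, with 27 UMIs in all 4-8 h sums, and the 2-4 h window holds 2 sums.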
